A study of Mus musculus with 2 samples.

Results

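The Wnt genes described here are 59 of the 24354 genes with an FPKM value in differentiating mouse ESCs. They were chosen by symbol, with earlier results of these data known, and all 59 were found. They comprise 19 Wnt ligand genes, 10 Frizzled receptor genes, the 4 co-receptor genes Lrp5, Lrp6, Ror1 and Ror2, and 4 R-spondin genes. The others are 10 genes of secreted antagonists, and 12 genes that act in ligand acylation, receptor turnover or inside the cell. FPKM counts sequenced fragments relative to transcript length and library size. Levels are thus relative to the rest of each library, and ratios between libraries depend on the scaling chosen.

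Wnt ligands are lipid-modified secreted proteins that bind Frizzled receptors. With the co-receptors Lrp5 or Lrp6 they stop the breakdown of β-catenin, which then works with TCF/LEF factors at target genes, whereas receptors of the Ror family take part in β-catenin-independent signaling. In the early embryo Wnt signaling is needed for the primitive streak and the mesoderm that forms from it, and many of its targets, such as Axin2, Nkd1 and Rnf43, encode inhibitors that act back on the pathway.

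The RNA came from control ESCs (Diff–CONT, 1 culture) and from ESCs with an inducible deletion of Ino80 (Diff–iKO, 1 culture), so the differences could not be set against replicates and no p-value is given. The sample labels call the control genotype WT, while the methods describe blastocyst-derived lines that both carry the floxed Ino80 2f/2f allele, with ROSA26-CreER in the knockout line only. Both cultures were primed in serum for 2 days, formed EBs in medium with 8% KSR, were moved to gelatin on day 4, and then spent 7 days in medium with 15% FBS, BMP4 and 0.5 µM 4-OHTM, which activates CreER. Ino80 itself had an FPKM of 8.90 in the library labelled Diff–CONT, and that labelled Diff–iKO had 10.3. The whole-gene value therefore went against the label and does not resolve the deleted part, and directions below compare the library labelled Diff–iKO with that labelled Diff–CONT, and of each pair of values the first is from the library labelled Diff–CONT.

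The FPKM steps of genes with 1 transcript gave an estimated depth on genes of 27681506 fragments in Diff–CONT, against 21440442 in Diff–iKO. Intervals given below are exact Clopper-Pearson 95% intervals of the log2 ratio of FPKM from these fragments, and they cover counting error only. The cell type markers differed strongly between the libraries. Summed FPKM of 10 pluripotency markers was 230 and 893, with 9 of them past a fold change of 2, and Pou5f1 rose from 60.8 to 247. Summed FPKM of 10 visceral endoderm markers was 296 and 14.5, and all 10 fell. Among the other lists, 5 of the 7 cardiomyocyte genes that reached an FPKM of 2 fell, as did 7 of 12 mesenchyme genes, 5 of 9 endothelial genes and both of the 2 primitive streak genes, T and Eomes. All 5 genes of the trophoblast list that reached that level rose. Cdx2, a posterior and trophoblast factor kept on the list of Wnt targets below, fell from 4.00 to 0.705. Pecam1 of the endothelial list rose, and 0 of 7 epithelial genes were past the fold change. Over all genes at that level 8.39% were lower and 6.73% higher. Part of the marker counts follows from the FPKM minimum: T and Eomes, 4 of the 5 trophoblast genes, 6 of the 10 visceral endoderm genes, 3 of the 5 cardiomyocyte genes, 3 of the 5 lower endothelial genes and 1 of the 7 mesenchyme genes reached it only in the library where they were higher. The 9 pluripotency genes and Pecam1 reached it in both. In bulk RNA, fewer cells of a type and less RNA per cell cannot be told apart, and the part of these marker shifts in the Wnt results was not tested.

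Of the 59 Wnt genes, 51 reached an FPKM of 2 in at least 1 library. Among these 51, 18 were lower by a fold change of at least 2 in the library labelled Diff–iKO (35.3%) and 2 were higher (3.92%). Over all 12376 genes that reached the same FPKM, 8.39% were lower and 6.73% were higher past this cut-off. The median log2 ratio was -0.42 over the 51 Wnt genes and 0.00 over all genes, and 39 of the 51 (76.5%) had a ratio below 0 against 50.3% of all genes. Of the 18 lower genes, 16 had a counting interval that lay wholly past the cut-off. Of all 20 genes past the cut-off, 7 reached an FPKM of 2 only in the library where they were higher (Wnt1, Wnt2, Fzd4, Rspo3, Rnf43, Sfrp5 and Sfrp4). Among the 38 Wnt genes that reached it in both libraries, 31.6% were lower, against 5.1% of all such genes. By role, 6 of 14 ligands (42.9%), 4 of 10 Frizzled receptors (40%), 3 of 9 secreted antagonists (33.3%) and 2 of 5 intracellular regulators (40%) were among the 18, and 0 of 4 TCF/LEF factors. Differences between roles were not tested.

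**Figure D1:**
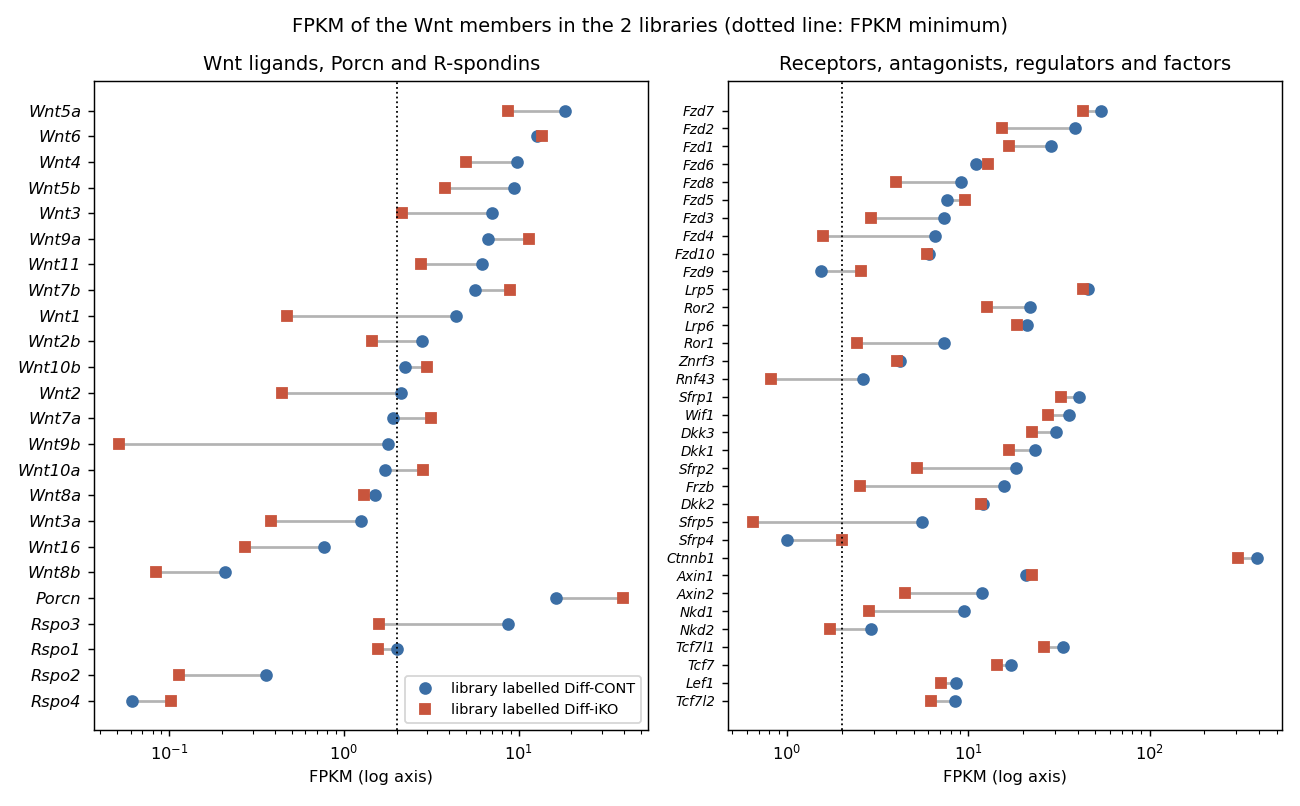
FPKM of each Wnt gene in the library labelled Diff–CONT (circles) and the library labelled Diff–iKO (squares) on a log axis, 1 library per point, with the FPKM minimum of 2 as a dotted line. Dkk4 is at 0 in both libraries and is not drawn. Wnt1, Wnt9b, Rspo3, Frzb and Sfrp5 show the widest gaps, and Porcn is the clearest gene to the right in the library labelled Diff–iKO.

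The Wnt ligands did not all move alike. Of the 14 ligand genes at the FPKM minimum, 6 fell (Wnt1, Wnt2, Wnt3, Wnt11, Wnt5b and Wnt5a), 0 rose past the cut-off, and 5 had a higher value beyond counting error without reaching it (Wnt9a, Wnt7a, Wnt7b, Wnt10a and Wnt10b). The summed FPKM of all 19 ligands was 96.4 and 69.7, so 72.3% of it was kept. Ligands that were lower beyond counting error, 8 in number, went from 62.3% to 35.4% of the ligand sum, and the 5 that were higher went from 18.8% to 42.1%. Both sets were formed by these same ratios, so the shares had to move apart and describe the size of the difference only. Wnt7a and Wnt10a of the higher set reached an FPKM of 2 only in the library where they were higher. The same holds for Wnt1, Wnt2 and Wnt2b of the lower set. Wnt5a was the most abundant ligand in the library labelled Diff–CONT and Wnt6 in that labelled Diff–iKO.

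Wnt1, best known for its role in the midbrain and neural crest, fell from an FPKM of 4.38 (288 fragments) to 0.469 (23 fragments), a log2 ratio of -3.22 with an interval of -3.90 to -2.61. Wnt3, which is required for the primitive streak and mesoderm, fell from 7.04 to 2.13, with a log2 ratio of -1.72 (interval -2.01 to -1.46). Its closest relative Wnt3a, which maintains paraxial mesoderm in the tail, was at 1.25 and 0.383 and so under the FPKM minimum, with a log2 ratio of -1.70 (interval -2.44 to -1.02). The ratios of Wnt3 and Wnt3a were thus nearly the same, at a lower level for Wnt3a. Wnt2, a ligand of heart and lung mesoderm, fell from 2.12 to 0.439 (-2.27, interval -3.05 to -1.61), and its relative Wnt2b was at 2.80 and 1.44, a log2 ratio of -0.96 (interval -1.31 to -0.63) just short of the cut-off.

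The ligands best known for β-catenin-independent signaling in cell movement were also lower. Wnt5a fell from an FPKM of 18.4 to 8.67 (-1.09), with the cut-off inside its interval of -1.22 to -0.96. Wnt5b fell from 9.37 to 3.79 (-1.31, interval -1.56 to -1.05) and Wnt11 from 6.18 to 2.76 (-1.16, interval -1.50 to -0.82). The intervals of Wnt5a and Wnt5b overlap, so the paralogues were lower to an extent that counting error does not separate. Wnt4, a ligand of kidney and gonad development, stood just outside the cut-off at 9.73 and 4.98 (-0.97, interval -1.13 to -0.81).

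Wnt6 and the ligands of the Wnt7, Wnt9a and Wnt10 branches did not follow. Wnt6, expressed in surface ectoderm and other epithelia, was at 12.8 and 13.6, with an interval (-0.07 to 0.25) that includes 0. Wnt9a was at 6.69 and 11.5, a log2 ratio of 0.78 (interval 0.63 to 0.93). Wnt7b was at 5.58 and 8.91 and Wnt7a at 1.90 and 3.16, with log2 ratios of 0.67 and 0.73. Wnt10a, at 1.71 and 2.84, had a log2 ratio of 0.73, and Wnt10b, at 2.24 and 2.97, one of 0.41 (interval 0.05 to 0.76). None of these was past the cut-off, and the intervals of Wnt7a and Wnt10a reach it.

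Among the 8 Wnt genes under the FPKM minimum, whose highest FPKM was 1.78, 5 were lower by a fold change of at least 2. Such a fold change is common at this level: of all 4937 genes under the minimum and above 0 in both libraries, 21.2% were lower and 24.7% higher by as much. Wnt9b, a kidney ligand, had the largest difference of all: it was at 1.78 (231 fragments) and 0.0515 (5 fragments), a log2 ratio of -5.11 with an interval of -6.74 to -3.86. Wnt3a, Wnt16, Wnt8b and Rspo2 were the other 4, with log2 ratios of -1.70, -1.50, -1.32 and -1.67, and Wnt8b, from 20 and 6 fragments, had an interval that includes 0. Dkk4 was listed at 0 in both libraries.

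**Figure D2:**
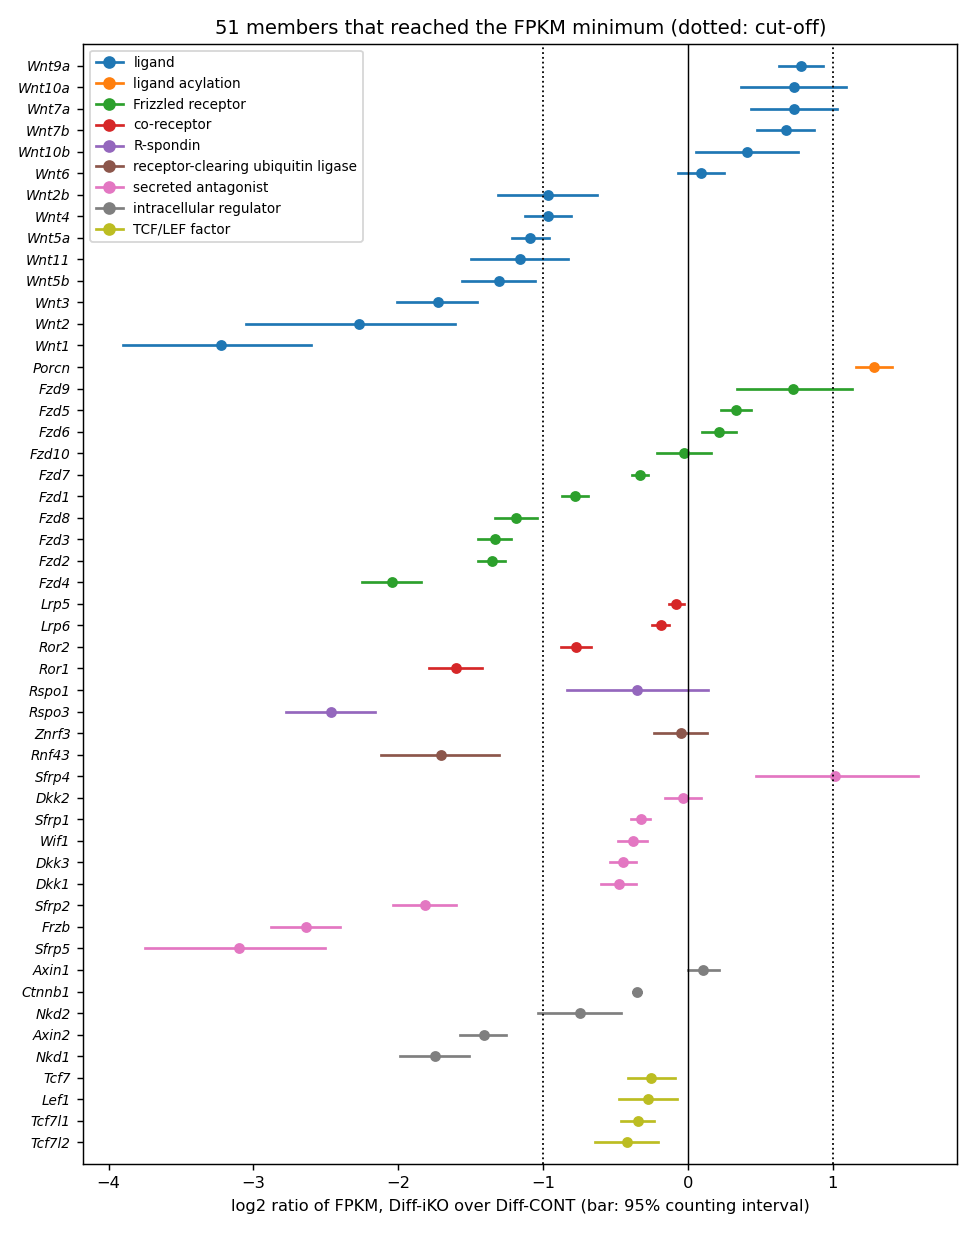
Log2 ratio of FPKM, library labelled Diff–iKO over library labelled Diff–CONT, for the 51 Wnt genes that reached the FPKM minimum, grouped and colored by role. Points are single ratios, bars are 95% counting intervals, the solid line is 0 and dotted lines are the cut-off at -1 and 1. Points on the left of the left dotted line are the 18 lower genes, and Porcn and Sfrp4 are the only points past the right one.

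Several ligand genes lie next to each other in the genome, and neighbours differed in some cases. On chromosome 11 of GRCm38, Wnt3a (chr11:59248033-59290752) and Wnt9a (chr11:59306928-59333552) point away from each other across 16.2 kb, with log2 ratios of -1.70 and 0.78. Wnt10b (chr15:98770712-98778150) and Wnt1 (chr15:98789857-98793837) do the same across 11.7 kb, with log2 ratios of 0.41 and -3.22. The third divergent pair, Wnt9b and Wnt3 (24.3 kb apart on chromosome 11), was lower at both genes. Wnt6 and Wnt10a, 6.2 kb apart in the same orientation on chromosome 1, were at 0.09 and 0.73.

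The 100 bases before the RefSeq start (GRCm38.p6) of the genes in the 2 neighbouring pairs with ratios of opposite sign are shown to let their base composition be compared, 5′ to 3′ on the gene's own strand with CpG dinucleotides in capitals.
Wnt3a, chr11:59290752-59290851, minus strand: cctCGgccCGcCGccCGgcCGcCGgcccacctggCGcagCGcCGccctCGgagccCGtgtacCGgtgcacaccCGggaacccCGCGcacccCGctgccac
Wnt9a, chr11:59306830-59306929, plus strand: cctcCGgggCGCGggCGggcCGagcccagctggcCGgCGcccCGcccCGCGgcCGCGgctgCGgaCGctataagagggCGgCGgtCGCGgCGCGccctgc
Wnt10b, chr15:98778151-98778250, minus strand: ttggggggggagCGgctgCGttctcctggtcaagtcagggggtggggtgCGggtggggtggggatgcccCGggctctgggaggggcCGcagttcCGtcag
Wnt1, chr15:98789757-98789856, plus strand: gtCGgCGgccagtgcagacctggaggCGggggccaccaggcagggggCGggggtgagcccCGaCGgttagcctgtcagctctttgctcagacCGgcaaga
The stretches before Wnt3a and Wnt9a hold 16 and 20 CpG, and those before Wnt10b and Wnt1 hold 6 and 7. In the longer RefSeq promoters of 300 bases, Wnt3a and Wnt9a hold 45 and 58 CpG and Wnt10b and Wnt1 hold 18 and 26, so Wnt9a and Wnt1 had more than their neighbours in both windows. Of the 40 Wnt genes with a promoter in the RefSeq table, 80.0% had an observed over expected CpG ratio above 0.6, against 74.8% of 9424 genes that reached the FPKM minimum and 36.4% of all 27025 genes in the table. Over all starts the share was 70% of the 50 of these Wnt genes and 35.8% of all 32851. With 1 start per gene the share was 84.6% (11 of 13) among the lower Wnt genes and 81.8% (18 of 22) among those not past the cut-off. The medians were lower in the former: a CpG ratio of 0.699 against 0.865, 24 against 33 CpG and a GC content of 65.7% against 75%. The part of base composition in the ratios was not tested.

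Porcn was the main exception in direction. It encodes the acyltransferase that adds the lipid Wnt ligands need for secretion, and it rose from an FPKM of 16.3 to 39.6, for a log2 ratio of 1.28 (interval 1.16 to 1.41). Porcn was the Wnt gene with the largest increase. Wls, which encodes the carrier that brings acylated ligands to the cell surface and is not among the 59, was at 184 and 146. Its log2 ratio was -0.34, so Porcn and Wls did not move alike.

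Of the 10 Frizzled receptor genes, which all reached the FPKM minimum, 4 fell and 0 rose past the cut-off. Their summed FPKM was 171 and 114. Fzd4, a receptor of blood vessel development, fell from 6.53 to 1.58, for a log2 ratio of -2.05 (interval -2.25 to -1.84). Fzd2 fell from 38.9 to 15.2 (-1.35, interval -1.45 to -1.26), Fzd3, a receptor of axon guidance and planar polarity, from 7.33 to 2.90 (-1.34, interval -1.45 to -1.22), and Fzd8 from 9.06 to 3.98 (-1.19, interval -1.33 to -1.04). Fzd2 accounted for more of the loss in summed FPKM than any other receptor.

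Fzd7 stayed the most abundant receptor, at 54.0 and 43.0, and its share of the Frizzled sum was 31.6% and 37.6%. Fzd1 was at 28.7 and 16.7, a log2 ratio of -0.78 (interval -0.87 to -0.69). Fzd5 (7.58 and 9.55), Fzd6 (11.05 and 12.8) and Fzd9 (1.54 and 2.55) were higher beyond counting error without reaching the cut-off, and Fzd10 was at 6.05 and 5.94 with an interval that includes 0. The Frizzled genes thus differed among themselves in direction as well as size, from -2.05 in Fzd4 to 0.73 in Fzd9.

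Of the 4 co-receptor genes, only Ror1 was past the cut-off. Lrp5 was at an FPKM of 45.6 and 43.1 (log2 ratio -0.08, interval -0.13 to -0.03) and Lrp6 at 21.1 and 18.5 (-0.19, interval -0.25 to -0.13). Ror1, a tyrosine kinase-like receptor that binds Wnt5a, fell from 7.34 to 2.42 (-1.60, interval -1.79 to -1.42). Ror2, its paralogue, was at 21.7 and 12.7 (-0.77, interval -0.88 to -0.67). Ryk, which encodes another Wnt receptor outside the Frizzled family and is not among the 59, was at 43.0 and 42.6 (-0.01).

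**Figure D3:**
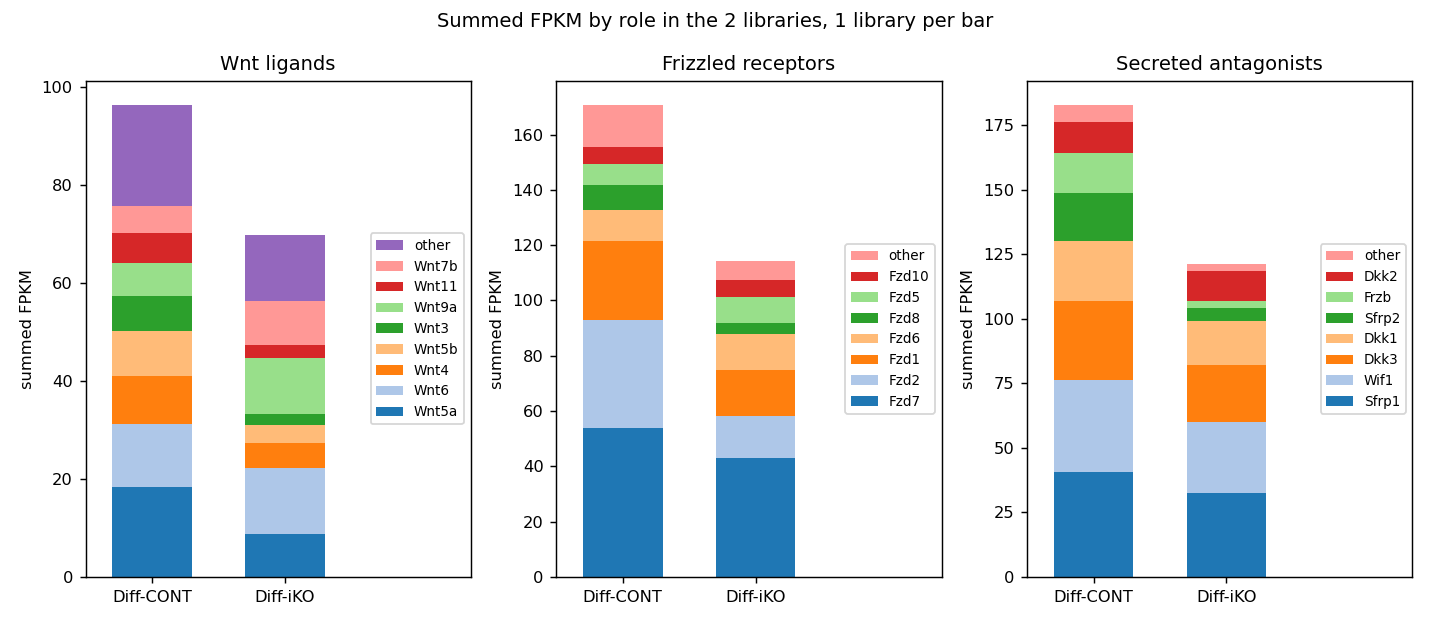
Summed FPKM of the Wnt ligands, Frizzled receptors and secreted antagonists, 1 bar per library, divided by gene; genes under 5% of the sum in both libraries are pooled as other. Ligands sum to 96.4 and 69.7, receptors to 171 and 114, and antagonists to 183 and 121, and the segments of Wnt9a and Wnt7b are larger in the library labelled Diff–iKO.

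R-spondins strengthen Wnt signaling by removing the ubiquitin ligases Znrf3 and Rnf43, which clear Frizzled receptors from the cell surface. Rspo3, a factor of vessel and placenta development, fell from an FPKM of 8.68 (755 fragments) to 1.57 (102 fragments), for a log2 ratio of -2.46 (interval -2.77 to -2.16). Its share of R-spondin FPKM went from 78.2% to 46.9%, so that Rspo3 and Rspo1 were level, both at 1.57, in the library labelled Diff–iKO. Rspo1 was at 2.00 in the library labelled Diff–CONT, and its interval of -0.84 to 0.14 includes 0. In total the R-spondin sum went from 11.1 to 3.36. Rnf43 fell from 2.64 to 0.811 (-1.70, interval -2.12 to -1.30), whereas Znrf3 was at 4.20 and 4.06 with an interval of -0.23 to 0.13, so the paralogous ligases did not move alike. Lgr5, which encodes an R-spondin receptor and is itself a Wnt target, fell from 2.35 to 0.266 (-3.14, interval -3.76 to -2.57), while Lgr4 was at 28.1 and 28.3.

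Of the 9 secreted antagonists at the FPKM minimum, 3 fell and 1 rose, all in the Sfrp and Frzb family, whose log2 ratios ran from -3.10 to 1.01. The Sfrp proteins and Frzb bind Wnt ligands through a domain like that of the Frizzled receptors, and 3 of these 5 genes fell. Sfrp5 fell from 5.58 to 0.650, for a log2 ratio of -3.10 (interval -3.75 to -2.50), and Frzb, a gene of cartilage and mesenchyme, from 15.7 to 2.53 (-2.64, interval -2.88 to -2.40). Sfrp2 fell from 18.4 to 5.21 (-1.82, interval -2.04 to -1.60). Sfrp1, the most abundant antagonist in both libraries, was at 40.6 and 32.4 (-0.33, interval -0.39 to -0.26). Sfrp4 went the other way, from 0.996 (47 fragments) to 2.01 (71 fragments). The log2 ratio was 1.01 (interval 0.47 to 1.59), which stood at the edge of both limits of the cut-off, so it was no longer past it with a pseudocount of 0.1.

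The Dkk proteins, which block the Lrp5 and Lrp6 co-receptors, and Wif1, which binds the ligands, held no gene past the cut-off. Dkk1 was at an FPKM of 23.4 and 16.8 (log2 ratio -0.48, interval -0.60 to -0.36), Dkk3, a divergent member of the family, at 30.5 and 22.4 (-0.45, interval -0.53 to -0.36), and Dkk2 at 12.0 and 11.8 with an interval of -0.16 to 0.09. Wif1 was at 35.7 and 27.5 (-0.38, interval -0.48 to -0.28). Sfrp1 was nearer to level than Dkk1 and Dkk3, but its interval overlaps those of both. The Sfrp and Frzb genes together went from a sum of 81.3 to 42.8, and the Dkk genes from 65.9 to 50.96.

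Inside the cell, the core genes Ctnnb1 and Axin1 were not past the cut-off, while the feedback inhibitors Axin2 and Nkd1 fell. Ctnnb1, which encodes β-catenin and was by far the most abundant of the 59, was at an FPKM of 391 and 307 (-0.35, interval -0.38 to -0.32). Axin1, the scaffold of the complex that breaks down β-catenin, was at 20.9 and 22.5. Axin2, its paralogue and a widely used readout of β-catenin signaling, fell from 11.9 to 4.48 (-1.41, interval -1.57 to -1.25). Nkd1, an inhibitor that binds Dishevelled, fell from 9.504 to 2.83 (-1.75, interval -1.99 to -1.51), and Nkd2 was at 2.91 and 1.73 (-0.75, interval -1.04 to -0.46).

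All 4 TCF/LEF factors were slightly lower, each beyond counting error, with log2 ratios between -0.42 and -0.25. A ratio beyond counting error was usual here: 46 of the 51 Wnt genes had an interval that excludes 0. The intervals of Gapdh (log2 ratio -0.30) and Actb (-0.07) also exclude 0. Tcf7l1, the factor that mostly acts as a repressor in ESCs, was at 33.2 and 26.1, Tcf7 at 17.1 and 14.4, Lef1 at 8.58 and 7.08, and Tcf7l2 at 8.40 and 6.26. Their order of abundance was the same in both libraries. Lef1 and Tcf7 are themselves known as Wnt targets. The 7 feedback targets among the 59 did not move alike: Axin2, Nkd1 and Rnf43 fell, and the median log2 ratio of the other 4 (Lef1, Tcf7, Znrf3 and Dkk1) was -0.26.

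The ratios of paralogues were set side by side. Of 29 pairs within subfamilies, 24 had both genes at the FPKM minimum, and in 18 of these the counting intervals did not overlap. The call differed in 14 of the 24 pairs and matched in 10, and the sign differed in 6. Some genes stand in several pairs. Pairs of unrelated genes were not counted, so these counts do not tell whether paralogues differed more or less than other gene pairs. Among these 24 pairs the widest gap was between Frzb and Sfrp4 (log2 ratios -2.64 and 1.01), followed by Sfrp1 and Sfrp5 (-0.33 and -3.10) and Fzd4 and Fzd9 (-2.05 and 0.73). Lef1 and Tcf7, Wnt7a and Wnt7b, and Tcf7l1 and Tcf7l2 lay closest. With a gene under the minimum, Wnt9a and Wnt9b (0.78 and -5.11) lay farther apart and Wnt3 and Wnt3a (-1.72 and -1.70) closer than any of the 24. The longest run of identical bases in the transcripts of a pair was 47 nucleotides, between Fzd1 and each of Fzd2 and Fzd7, and pairs of ligand genes shared at most 29.

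**Figure D4:**
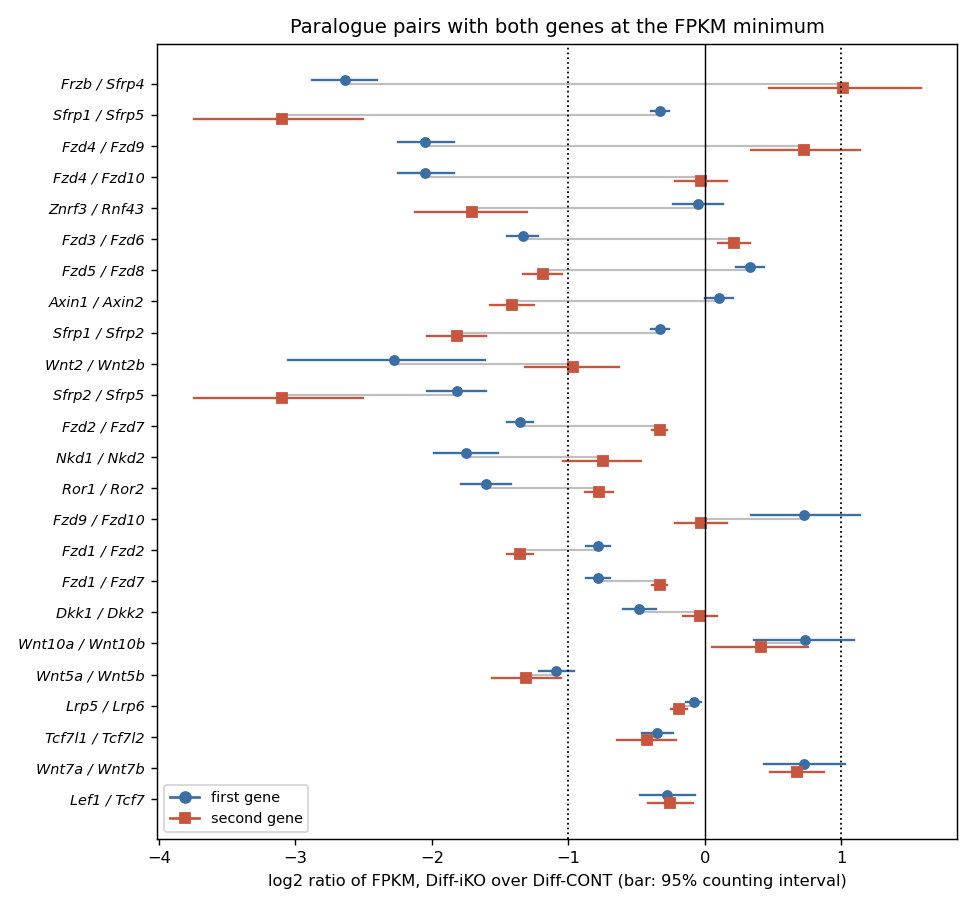
Log2 ratio of FPKM, library labelled Diff–iKO over library labelled Diff–CONT, for both genes of 24 paralogue pairs, first gene as a circle and second gene as a square, with 95% counting intervals as bars and the cut-off as dotted lines. The widest gaps stand at the top, led by Frzb and Sfrp4, and the pairs at the bottom, Lef1 with Tcf7 and Wnt7a with Wnt7b, overlap.

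Other genes of the pathway, outside the 59, were looked up from lists by function. Of 74 such genes, 63 reached the FPKM minimum, of which 13 fell (20.6%) and 1 rose (1.59%) past the cut-off, against 8.39% and 6.73% of all genes, with a median log2 ratio of -0.37. Of the 13, Lgr5, Cer1, Draxin, Sp5, T and Cdx2 reached the minimum only in the library labelled Diff–CONT, which leaves 7 with an FPKM of 2 in both libraries. The gene that rose was Notum, which encodes an enzyme that removes the lipid from Wnt ligands and so inactivates them: it went from an FPKM of 11.2 to 28.3 (1.34, interval 1.198 to 1.485). Notum is a known Wnt target, and here it went against Axin2, Nkd1, Rnf43, Lgr5 and Sp5. Of the secreted and receptor genes, Cer1, a Nodal, BMP and Wnt antagonist of anterior endoderm, fell from 3.23 to 0.258, Draxin from 3.50 to 1.01, and Igfbp4, also reported as a Wnt antagonist, from 196 to 65.1. Ptk7, a co-receptor in planar polarity, was at 152 and 169.

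In the cytoplasmic, nuclear and planar polarity lists the lower share was near the 8.39% of all genes, at 11.1%, 9.09% and 10%. Of the 18 cytoplasmic genes 2 fell, namely Dact1 (15.8 to 7.46) and Dact3 (22.1 to 9.42), which encode Dishevelled-binding modulators. The kinase genes Csnk1a1 (146 and 113) and Csnk1d (65.3 and 64.3) and the tankyrase gene Tnks2 (85.3 and 71.8) were not past the cut-off. Of the 11 nuclear cofactor genes, Hhex fell from 4.62 to 2.19, while Tle3 was at 30.9 and 20.3, Chd8 at 27.7 and 32.0, and Pygo2 at 26.03 and 26.6. All 10 planar polarity genes had a ratio below 0 with a median of -0.59, and only Daam2 (19.7 to 6.12) fell past the cut-off, with Prickle1 (21.8 and 11.04) just short of it and Vangl2 at 21.9 and 13.0.

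**Figure D5:**
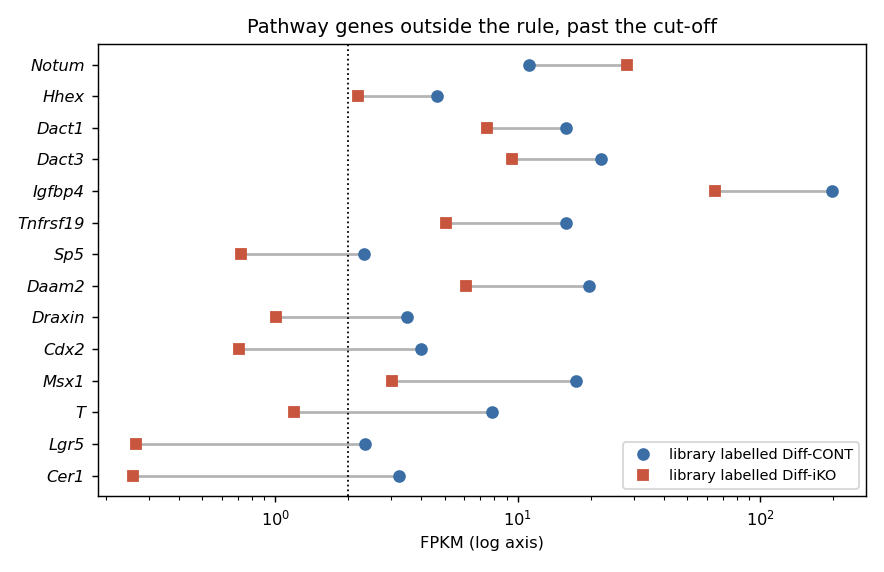
FPKM on a log axis of the 14 pathway genes outside the 59 that were past the cut-off, library labelled Diff–CONT as circles and library labelled Diff–iKO as squares, ordered by log2 ratio, with the FPKM minimum as a dotted line. Notum is the only gene that was higher in the library labelled Diff–iKO, and Cer1 and Lgr5 at the bottom differ most.

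Of 19 transcriptional targets, 11 reached the FPKM minimum and 5 of these fell (45.5%, against 8.39% of all genes), of which T, Cdx2 and Sp5 reached it only in the library labelled Diff–CONT. Of the targets that reached it in both, Msx1 and Tnfrsf19 fell, and Myc, Ccnd1, Msx2, Cd44, Wisp1 and Twist1 were not past the cut-off. Over all genes that reached it in both, 5.1% were lower. T, the Brachyury gene of the primitive streak, fell from 7.83 to 1.198 (log2 ratio -2.71, interval -3.15 to -2.27), Cdx2, a posterior and trophoblast factor, from 4.00 to 0.705 (-2.50, interval -3.06 to -1.96), and Msx1 from 17.3 to 3.01 (-2.52, interval -2.82 to -2.25). Tnfrsf19 fell from 15.8 to 5.07 and Sp5, a direct target used as a reporter of the pathway, from 2.32 to 0.723. The most abundant targets were not past the cut-off: Ccnd1 at 28.2 and 22.8, Msx2 at 25.9 and 23.3, and Wisp1 at 19.7 and 25.6. Of the list, T, Mixl1, Tbx6, Mesp1, Msgn1 and Twist1 are also among the markers of primitive streak and mesenchyme named above, where summed FPKM was 17.0 and 4.25 and 2001 and 1732. The largest term of the mesenchyme sum was Col1a1 (880 and 1199, not past the cut-off), and the other 11 of the 12 mesenchyme genes had a ratio below 0, with a median of -1.03 over all 12.

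The letters that TCF/LEF factors bind, taken as CTTTGAA or CTTTGAT on either strand, were searched in the RefSeq promoters, from 250 bases before to 50 bases after each start. Promoters were in the table for 40 of the 59 Wnt genes, with 50 starts in all. The letters were in 3 of these 50 (6%), at Dkk1, Wnt11 and a start within Wnt5b, against 8.65% of all 32851 promoters. With 1 promoter per gene they were in 2 of the 40 Wnt genes (5%), against 5.6% of 9424 genes that reached the FPKM minimum. Neither Axin2 nor Nkd1 nor Rnf43 had them in this window, nor had the targets Cdx2 and Msx1. Over all starts the letters were in 8 of 73 promoters of the other pathway genes (10.96%), against 8.65% of all promoters. With 1 promoter per gene they were in 5 of 54 (9.26%), against 8.77% of all genes and 5.6% of those that reached the FPKM minimum. Neither the Wnt genes nor the pathway genes counted here were limited to that minimum. The windows that held them are shown for these 3 Wnt genes and for the 3 targets T, Sp5 and Tnfrsf19 that fell, with the letters in capitals, 5′ to 3′ on the gene's strand (GRCm38.p6).
Dkk1, chr19:30549581-30549640, minus strand: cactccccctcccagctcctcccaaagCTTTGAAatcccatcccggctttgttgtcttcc
Wnt11, chr7:98835034-98835093, plus strand: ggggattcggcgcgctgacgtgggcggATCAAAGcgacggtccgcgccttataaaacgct
Wnt5b, chr6:119449425-119449484, minus strand: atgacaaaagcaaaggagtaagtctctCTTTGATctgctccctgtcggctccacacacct
Sp5, chr2:70474792-70474851, plus strand: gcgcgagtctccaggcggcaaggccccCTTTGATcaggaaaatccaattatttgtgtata
T, chr17:8434173-8434220, plus strand: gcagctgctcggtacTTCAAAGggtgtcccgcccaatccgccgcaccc
Tnfrsf19, chr14:61038157-61038216, minus strand: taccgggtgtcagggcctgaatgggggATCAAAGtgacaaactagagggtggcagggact
Counted in bases from the start, the letters began at -117 in Dkk1, -51 in Wnt11, -71 in Wnt5b, -104 in Sp5, -235 in T and -202 in Tnfrsf19. The 3 targets were shown because they fell. The letters were also in promoters of Gsk3a (log2 ratio 0.17) and Prickle2 (-0.76), which were not past the cut-off, and of Mesp1, Msgn1 and Sp8, which were under the FPKM minimum. A match is a description of the letters only.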

How the data were processed

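Poly(A) RNA of 2 libraries, 1 per condition, was compared. Values deposited by the authors are in FPKM and cover 24354 genes. The submitters' processing notes name STAR 2.7.9a, Cufflinks 2.2.1, Cuffnorm and mm10. The libraries were stranded and paired-end, while the annotation, the strand option of the quantification and read numbers are not given in the sources used here, so reads of the 11 Wnt genes that overlap an antisense gene in GENCODE vM21 (Axin2, Ctnnb1, Fzd5, Fzd6, Lef1, Rspo3, Sfrp2, Tcf7l1, Wnt5a, Wnt7b and Wnt11) may not be separated. The 2 columns were assigned by name.

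The log2 ratio was taken without a pseudocount, with the cut-off of the methods (FC ≥ 2, FPKM ≥ 2), the FPKM limit read here as reached in at least 1 library. No test was made, since each condition had 1 library. Fragments were recovered from FPKM steps of 13085 genes with 1 transcript of at least 1000 nucleotides, where 85.3% and 85.0% of low values lay within 0.2 of a whole multiple (40.0% by chance). They rest on the shortest transcript, over 23315 genes matched by symbol, so totals and intervals are approximate, widest for low and short genes. The steps were also refitted on simulated counts made with these same lengths and steps, which does not test the choice of transcript.

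The Wnt genes and the lists were chosen with earlier results of these data known. Named were Wnt genes at the FPKM minimum, those under it that were at 0 or past the fold change, pathway genes past the cut-off, the 3 most abundant of each pathway list and, of the cell markers past the cut-off, a few beside the counts. Lgr4, Ryk, Col1a1, Gsk3a, Prickle2, Mesp1, Msgn1, Sp8, Mixl1, Tbx6, Twist1, Cdx1, Cdx4, Fgf9, Myc, Cd44, Gapdh and Actb were named after their values were seen. Coordinates are from GENCODE vM21 (GRCm38) and promoters from RefSeq (GRCm38.p6). Alternatives were other FPKM minimums, pseudocounts, fold changes and scalings. Scripts ran in Python 3.11.15 (pandas 2.3.3, numpy 2.4.6), intervals in scipy 1.17.1 and plots in matplotlib 3.10.9.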

Additional observations from a re-analysis of the deposited data

How the results depend on the processing

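The count of lower Wnt genes stayed between 12 and 23 under every other FPKM minimum, pseudocount and scaling and a fold change minimum of 1.5, and was 6 with a fold change minimum of 4. At an FPKM minimum of 5, 38.5% of 39 Wnt genes were lower against 6.54% of all genes. The count of higher Wnt genes was 1, with Porcn left, at an FPKM minimum of 5, with FPKM of 2 in both libraries, with pseudocounts of 0.1 and 1 and with both libraries scaled to the same sum; it was 7 with a fold change minimum of 1.5 and 0 with one of 4. Scaling to the same sum lowered all log2 ratios by 0.09 and put Wnt2b and Wnt4 past the cut-off, and a pseudocount of 1 took out Wnt11. A pseudocount of 0.1 changed the counts over all genes to 807 higher and 1002 lower. The median log2 ratio lay between -0.53 and -0.37. Of the pathway genes outside the 59, 2 rose with an FPKM minimum of 1 and 3 without a minimum, and 7 fell with an FPKM minimum of 5 or with FPKM of 2 in both libraries. No log2 ratio past the cut-off changed sign. Intervals from the longest transcript left the same number of lower and higher genes, 3, with the cut-off inside. No paired analysis was possible because each condition had 1 library, and for the same reason no library could be left out.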
